A study of Vitis vinifera with 12 samples.

Results

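AG and AP1 are the grapevine rows named for AGAMOUS and APETALA1, 2 floral transcription factors of the MADS-box family. They were chosen by name: a row belonged if AG or AP1 stood, as a whole name, among the comma-separated names of that row. Each name gave 1 row in each table, so the members were 2 of 25210 rows in the fruit peel table and 2 of 25253 rows in the young leaf table. The groups were fruit peel and young leaf of 3 Vitis vinifera cultivars with differing anthocyanin levels: Bangalore blue, Red globe and Dilkhush. The labels name no treatment, stage or age. They list 2 libraries for each of the 6 groups, 12 in all, but each table carries a single column per cultivar, so values are the authors' own, without a spread between replicates. Nothing could be tested against such a spread, and p-values are left out.

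MADS-box proteins bind DNA as dimers and larger complexes, and the combination present in a floral whorl sets which organ forms there. In Arabidopsis, APETALA1 marks the floral meristem and the outer organs, while AGAMOUS specifies stamens and carpels and ends the growth of the floral meristem. The berry develops from the ovary wall, a carpel tissue. In grapevine, relatives of APETALA1 and FRUITFULL are also known from tendrils, which are modified inflorescence shoots.

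The unit is RPKM, in which reads are divided by length and by all mapped reads, so that it lets genes be compared within a column. How deeply each column was sequenced is unknown. Peel and leaf were normalized in separate tables, so a level set across them carries any difference of scale between the tables. For that reason, each gene's percentile within its own column and its ratio to other genes of the same column are given as well. These are bulk tissues, in which fewer cells of a type and less RNA per cell cannot be told apart. In the tissue check, the 5 leaf marker rows summed to between 502 and 883 RPKM in peel and to between 1451 and 2858 RPKM in leaf. The 11 ripening peel marker rows summed to between 11046 and 22983 RPKM in peel and to between 411 and 810 RPKM in leaf. Of these 11 rows, 6 had every peel value above every leaf value, 4 overlapped, and the chitinase CHIT3 was lower in peel. The thiamine synthesis gene THI1-2 was the 1 leaf marker row that overlapped between the tissues.

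AG was higher in peel than in leaf in all 3 cultivars. It stood at 61.7 RPKM for Bangalore blue, 72.7 for Red globe and 95.0 for Dilkhush peel, against 10.1, 10.8 and 4.84 RPKM in Bangalore blue, Red globe and Dilkhush leaf. The lowest peel value was well above the highest leaf value, and Dilkhush had both the highest peel value and the lowest leaf value. AP1 showed the other pattern. It was listed at 0 in all 3 peel columns, and in leaf it stood at 0.27 RPKM for Bangalore blue, 6.50 for Red globe and 0.40 for Dilkhush. AP1 was thus below 1 RPKM everywhere but in Red globe leaf.

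**Figure D1:**
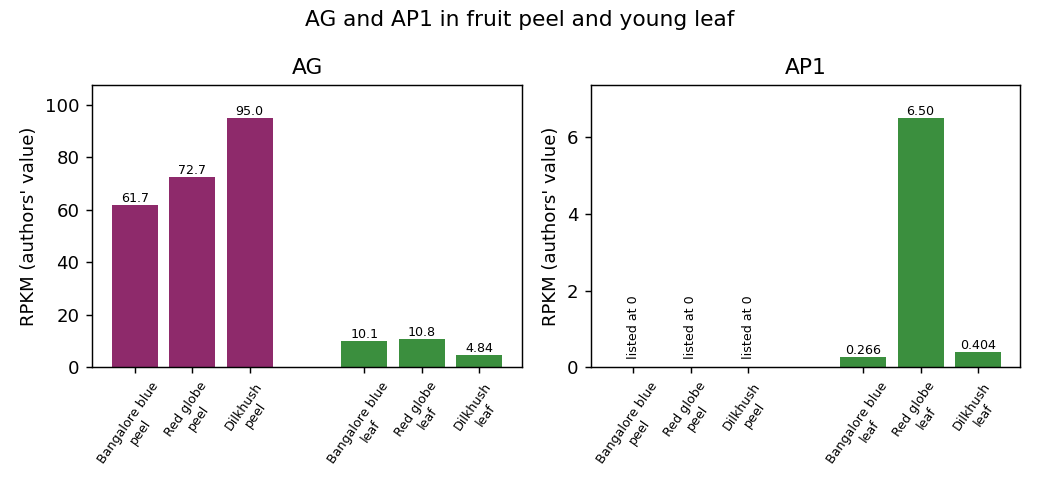
Bars give the authors' RPKM of AG (left panel) and AP1 (right panel) in the 3 fruit peel columns and the 3 young leaf columns, with the value above each bar; there are no replicates and so no error bars. AG is between 61.7 and 95.0 RPKM in peel and between 4.84 and 10.8 in leaf, while AP1 is listed at 0 in peel and reaches 6.50 RPKM in Red globe leaf.

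The excess of AG in peel was 6.13-fold for Bangalore blue, 6.73-fold for Red globe and 19.6-fold for Dilkhush, as ratios of RPKM. As differences of log2(RPKM + 1), which understate changes of low genes, these were 2.50, 2.64 and 4.04. A row was called where this difference reached 2 in size (4-fold) and the higher column held 10 RPKM or more. AG was called higher in peel in all 3 cultivars, as were 1.07% of the 23590 rows that could be matched by name between the tables. For single cultivars, the share of rows called higher in peel was 2.62% for Bangalore blue, 2.89% for Red globe and 3.15% for Dilkhush, and 7.08%, 7.55% and 6.1% were called lower. Among all matched rows, the AG difference lay at percentile 97.9 for Bangalore blue, 98.0 for Red globe and 99.2 for Dilkhush.

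Both tissues entered the larger difference of Dilkhush. Dilkhush peel had 1.54 times the AG level of Bangalore blue peel, and 1.31 times that of Red globe peel. Transfer RNA rows held 33.6% of summed RPKM in Red globe peel, 20.7% in Dilkhush peel and 13.9% in Bangalore blue peel. With an equal total without transfer RNA, the AG difference of Red globe minus Dilkhush peel went from -0.38 to -0.13. That of Bangalore blue minus Dilkhush peel went from -0.61 to -0.54. In leaf the order was turned round, with AG in Bangalore blue at 2.08 times and in Red globe at 2.23 times the Dilkhush level. Bangalore blue and Red globe leaf were close, at a ratio of 0.93. None of these cultivar differences of AG reached 4-fold. The share of rows called in either direction, with 4-fold and 10 RPKM in the higher column, was 2.23%, 2.1% and 1.84% in peel and 1.69%, 2.27% and 2.32% in leaf, for Bangalore blue against Dilkhush, Red globe against Dilkhush and Bangalore blue against Red globe. Without replicates, the order of the cultivars within a tissue cannot be separated from library error.

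Placed among the 23590 matched rows of its own column, AG was at percentile 92.5 for Bangalore blue, 94.3 for Red globe and 95.1 for Dilkhush peel. In leaf it was at percentile 58.6, 60.04 and 47.0 in the same cultivar order. It stood at 23.1, 23.7 and 31.3 times the median of the matched rows in peel, and at 1.67, 1.74 and 0.80 times that median in leaf. This comparison does not depend on a scale shared by the tables. Measured rows were those with an RPKM of at least 1 in some column. Over these, the median difference of log2(RPKM + 1), peel minus leaf, was -0.38 for Bangalore blue, -0.39 for Red globe and -0.37 for Dilkhush. That median does depend on the scale. In the same cultivar order it was 0.53, 0.39 and 0.38 with equal medians, and 0.11, 0.10 and 0.04 after quantile normalization. The direction of the typical row is therefore not settled.

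**Figure D2:**
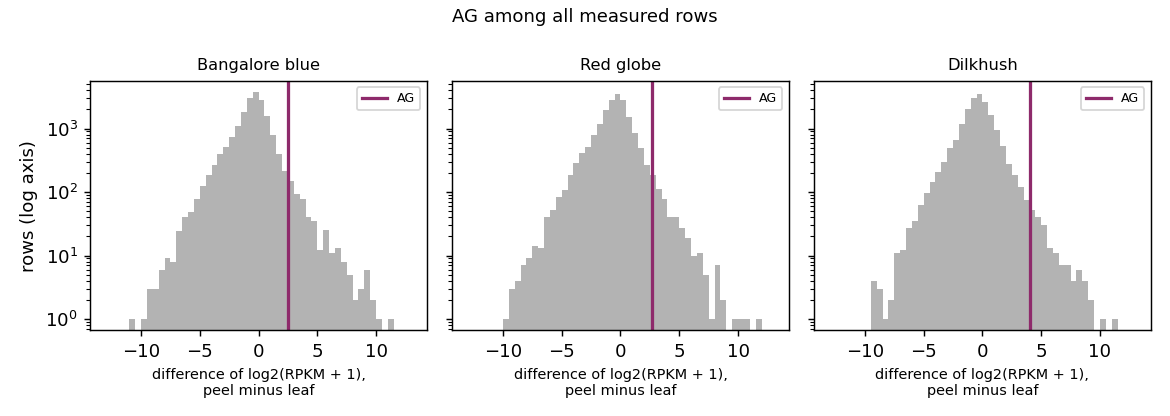
Grey bars count all measured rows by their difference of log2(RPKM + 1), peel minus leaf, in each cultivar, with a logarithmic count axis; the vertical line marks AG. AG lies on the right flank at 2.50 for Bangalore blue, 2.64 for Red globe and 4.04 for Dilkhush, inside the range of other rows.

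The other members of the list of flowering MADS-box genes place AG in its family. Of 11 further rows, 10 were measured, and 5 of these had all peel values above all leaf values, 2 had all peel values below and 3 overlapped. Over all measured rows the shares were 13.4% above and 38% below. Of the 5, MADS2, MADS4 and MADS5 reached 1 RPKM in peel alone, and of the 2, MADS8 did so in leaf alone. MADS5 reached it only in Red globe peel, at 5.71 RPKM, with 0.087 in Bangalore blue and 0.064 in Dilkhush peel. These rows passed the filter through the tissue where they were high, so the shares do not show how rare such a split is. In all 3 cultivars, 4 of the 10 were called higher and 1 was called lower; the shares over all measured rows were 1.38% and 4.45%. With AG and AP1 included, the 12 measured rows had a median difference of 0.75 for Bangalore blue, 1.88 for Red globe and 1.91 for Dilkhush, beside the medians near -0.4 for all measured rows. The medians for all measured rows were above 0 with equal medians and quantile normalization, as given above. The list median and the shares were not computed under those scalings.

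MADS1, for which the reference gives the synonym VvAG1, is the closest namesake of AG. It was at 187 RPKM for Bangalore blue, 166 for Red globe and 200 for Dilkhush peel, against 0.67, 0.97 and 1.62 RPKM in the leaves of the same cultivars. The third AG-type gene is MADS5, also named AGL11 and VvAG3, which is known for its role in grape seed development. It was 5.71 RPKM in Red globe peel, 0.087 in Bangalore blue peel and 0.064 in Dilkhush peel, and was listed at 0 in all leaf columns. MADS5 was the 1 row in the list of seed markers that could be matched, so the part of seed RNA in the Red globe peel value was not tested.

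The 3 AG-type rows were thus made up differently in the tissues. AG supplied 24.8% of their summed RPKM in Bangalore blue peel, 29.7% in Red globe peel and 32.2% in Dilkhush peel. In leaf, AG supplied 93.7%, 91.8% and 74.9% in the same cultivar order. MADS1 was the more abundant of the pair in peel, with an AG to MADS1 ratio of 0.33 for Bangalore blue, 0.44 for Red globe and 0.48 for Dilkhush. In leaf that ratio was 15.0, 11.2 and 2.99. Both genes were higher in peel, but MADS1 was nearly silent in leaf whereas AG kept a moderate level there. How reads shared by such related genes were assigned is not given in the sources used here, so the split between them is uncertain.

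The partners of AGAMOUS in Arabidopsis carpels are the SEPALLATA proteins. MADS4, named VvSEP3 in the reference, was the most abundant row of the list in peel, at 436 RPKM for Bangalore blue, 265 for Red globe and 332 for Dilkhush, against 0.34, 0.65 and 0.17 RPKM in leaf. MADS2, named VvSEP1, was at 10.4, 30.7 and 14.0 RPKM in peel. In leaf MADS2 was listed at 0 in Bangalore blue and Red globe and was 0.088 RPKM in Dilkhush. Both SEPALLATA rows were therefore present in peel and below 1 RPKM in leaf, where AG was still measured.

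Of the genes that specify petals and stamens in other species, TM6, also named VvAP3.2, was abundant in peel. It was 81.4 RPKM for Bangalore blue, 128 for Red globe and 277 for Dilkhush peel, against 0.66, 1.05 and 0.57 RPKM in leaf. Like AG, TM6 was highest in Dilkhush and lowest in Bangalore blue among peels. The other genes of this class were low. MADS9, the PISTILLATA gene of grape, was at most 0.090 RPKM in peel and at most 1.22 RPKM in leaf. AP3, also named VvAP3.1, was at most 0.21 RPKM in peel and 0.30 in leaf.

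Relative to MADS4, AG stood at 0.14, 0.27 and 0.29 in Bangalore blue, Red globe and Dilkhush peel, and at 29.7, 16.6 and 28.7 in the leaves. Relative to TM6 it stood at 0.76, 0.57 and 0.34 in peel and at 15.2, 10.3 and 8.51 in leaf. AG was therefore below all of MADS4, MADS1 and TM6 in every peel column and above all of them in every leaf column. Within the 13 rows of the list AG ranked 4 in each peel column and 3 in each leaf column.

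**Figure D3:**
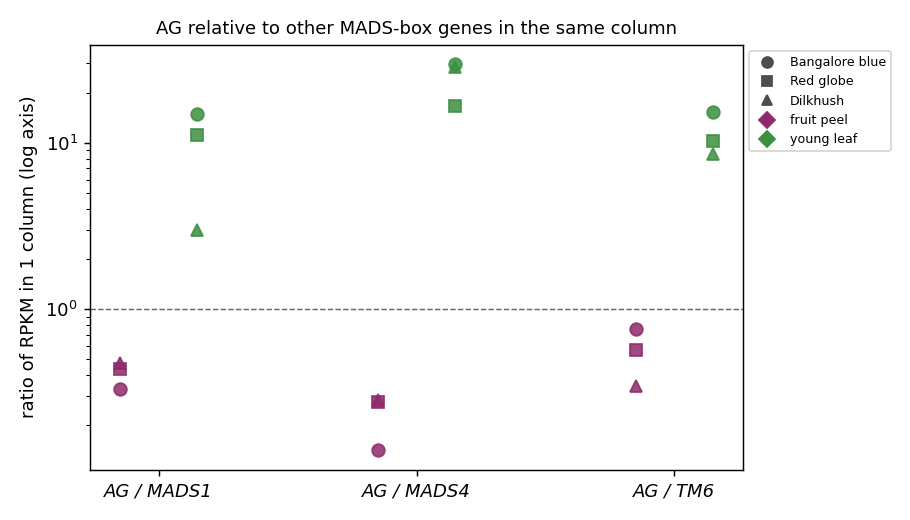
Points give the RPKM of AG divided by that of MADS1, MADS4 or TM6 in the same column, on a logarithmic axis, for 3 peel and 3 leaf columns; the dashed line marks equal levels. All peel ratios lie below 1, between 0.14 and 0.76, and all leaf ratios lie above 1, between 2.99 and 29.7.

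The leaf rows of the list that stood above AG were MADS8 and FLC. MADS8, for which the reference gives the synonym SOC1, a promoter of flowering in Arabidopsis, was 0.10, 0.15 and 0.11 RPKM in Bangalore blue, Red globe and Dilkhush peel, against 228, 180 and 135 RPKM in leaf. FLC, named for an Arabidopsis repressor of flowering, was 27.6, 14.2 and 27.4 RPKM in peel, against 140, 56.9 and 105 RPKM in leaf. MADS8 was called lower in peel in all 3 cultivars, while FLC was called in Bangalore blue at -2.30 and missed the 4-fold size in Red globe at -1.93 and in Dilkhush at -1.90. With equal medians FLC was -1.15 in Bangalore blue and was called in no cultivar. MADS3 was low in all columns, at most 2.71 RPKM in Red globe peel.

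**Figure D4:**
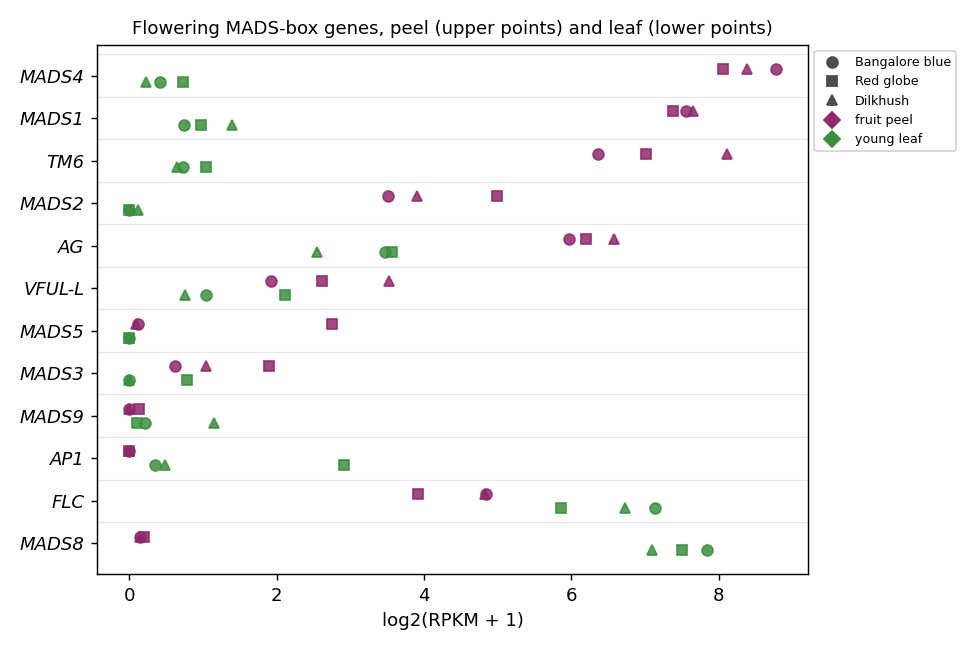
Each gene has its 3 peel values in the upper row of points and its 3 leaf values in the lower row, as log2(RPKM + 1), with symbols for the cultivars; genes are ordered by their mean difference between peel and leaf. MADS4, MADS1, TM6, MADS2 and AG are separated towards peel in every cultivar, MADS8 and FLC towards leaf, and AP1 departs from 0 mainly in Red globe leaf.

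The AP1 difference of log2(RPKM + 1), peel minus leaf, was -0.34 for Bangalore blue, -2.91 for Red globe and -0.49 for Dilkhush. Every peel value was below every leaf value, as in 38% of measured rows. Red globe was past the 4-fold size, but no column reached 10 RPKM, so AP1 was not called in any cultivar. No fold is given against peel, where it was listed at 0. A value of 0 in all 3 peel columns was common, at 9.53% of matched rows, but less so among rows that reached 1 RPKM in some leaf column, at 1.51%. Among the matched rows of its column AP1 lay at percentile 50.7 in Red globe leaf, against 21.7 in Bangalore blue and 24.8 in Dilkhush leaf. In Red globe leaf it was 24.4 times the Bangalore blue level and 16.1 times the Dilkhush level, as ratios of values that are themselves below 1 RPKM in the other cultivars. On the log2(RPKM + 1) scale the Bangalore blue minus Red globe difference was -2.57 and the Red globe minus Dilkhush difference was 2.42. Among rows at 1 RPKM in some leaf column, 0.818% were likewise at least 4-fold above both other cultivars in Red globe leaf on this scale. AP1 reached 1 RPKM in Red globe leaf alone, so it entered the rows behind the 1.51% and 0.818% shares through that column. These shares therefore do not show how rare its peel zeros or its Red globe leaf excess are.

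The list holds 1 gene of the FRUITFULL type, which is related to APETALA1, namely VFUL-L. It was 2.79 RPKM for Bangalore blue, 5.10 for Red globe and 10.6 for Dilkhush peel, against 1.06, 3.31 and 0.68 RPKM in leaf. VFUL-L was therefore present in peel, where AP1 was listed at 0, and in leaf it too was highest in Red globe. AP1 exceeded VFUL-L in Red globe leaf, at a ratio of 1.96, and was below it in Bangalore blue leaf, at 0.25, and in Dilkhush leaf, at 0.59. VFUL-L was called higher in peel in Dilkhush, at a difference of 2.78 (2.69 and under 10 RPKM, so not called, with an equal total without transfer RNA), beside 0.88 in Bangalore blue and 0.50 in Red globe.

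Beyond the MADS-box family, 5 rows of the list of flowering regulators were found and 4 were measured. TFL1A, a relative of Arabidopsis TERMINAL FLOWER 1, which keeps shoot tips from becoming flowers and represses APETALA1 there, had a leaf profile much like AP1. It was 0.17 RPKM for Bangalore blue, 2.82 for Red globe and 0.39 for Dilkhush leaf. In peel TFL1A was 0.078 RPKM for Red globe, and both other cultivars were listed at 0. Its relative TFL1C was instead higher in peel, at 2.81, 1.56 and 2.02 RPKM in Bangalore blue, Red globe and Dilkhush, against 0.14, 0.71 and 0.37 RPKM in leaf. TFL1B did not reach 1 RPKM in any column, with its highest value of 0.50 RPKM again in Red globe leaf.

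The row AP2, named for a floral regulator of another family, was 60.3, 49.0 and 48.7 RPKM in Bangalore blue, Red globe and Dilkhush peel, against 31.0, 21.3 and 34.8 RPKM in leaf. It was not called, but with columns scaled to equal medians it was called higher in peel in Bangalore blue at 2.08 and in Red globe at 2.15. LOC100232937, for which the reference gives the synonym VVGAI1, a repressor of gibberellin response, was 2.71, 2.95 and 3.49 RPKM in peel, against 19.7, 9.69 and 20.4 RPKM in leaf. It was called lower in peel in Bangalore blue at -2.48 and in Dilkhush at -2.25, and in neither when columns were scaled to equal medians (-1.50 and -1.38) or quantile normalized (-1.73 and -1.67). Of the 4 measured regulators, 2 were above and 2 below the leaf in all values, and none was called in all 3 cultivars.

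**Figure D5:**
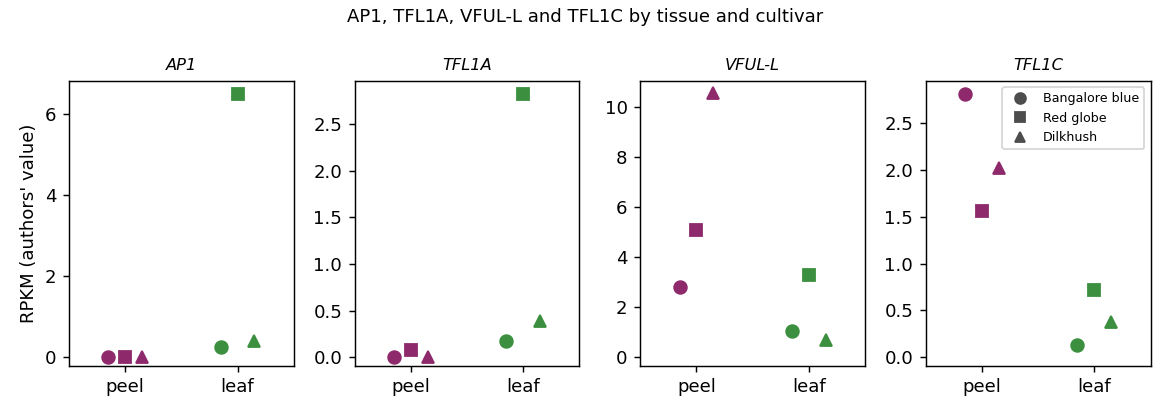
Points give the authors' RPKM of AP1, TFL1A, VFUL-L and TFL1C in peel and leaf, each panel with its own linear axis and one symbol per cultivar. AP1 and TFL1A both have their highest value in Red globe leaf, 6.50 and 2.82 RPKM, and are at or near 0 in peel, whereas VFUL-L and TFL1C are present in peel.

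A Red globe leaf value above the other leaves was no general feature of the flowering genes. Of 11 rows of both lists that reached 1 RPKM in some leaf column, 5 had their highest leaf value in Red globe, namely AG, AP1, TM6, VFUL-L and TFL1A. The share over all such rows was 41.6%, close to 5 of 11. AP1, TM6 and TFL1A reached 1 RPKM in Red globe leaf alone, so the filter itself made Red globe their highest leaf. MADS1 and MADS9 entered in the same way through Dilkhush leaf. On the log2(RPKM + 1) scale, AP1 was the 1 row of these 11 that was 4-fold above both other cultivars. As ratios of RPKM, TFL1A was also above 4-fold, at 16.4 times Bangalore blue and 7.31 times Dilkhush leaf. Red globe leaf also differed from the other leaves in its tissue markers. It had the lowest level of 4 of the 5 leaf marker rows, while THI1-2 was highest there. THI1-2 was 751 RPKM in Red globe leaf, against 46.0 in Bangalore blue and 279 in Dilkhush leaf. All 5 rows summed to 1451 RPKM in Red globe leaf, largely through THI1-2, to 2858 in Bangalore blue leaf and to 2793 in Dilkhush leaf. The share of all rows that were lowest in Red globe was not computed. Low leaf markers were not particular to the leaf column, since Red globe peel was likewise lowest among peels for 4 of the 5. Their sum was 502 RPKM in that peel, while the Dilkhush peel held 816 and the Bangalore blue one 883. Of these sums THI1-2 held 219 RPKM in Red globe, 259 in Dilkhush and 478 in Bangalore blue peel. Among leaves, Red globe had the highest level of 8 of 11 ripening peel markers. Among the 8 were CHIT3, which was lower in peel, and FAOMT, GST4 and UFGT, which overlapped between the tissues. All 11 markers summed to 810 RPKM in Red globe leaf, to 438 in Bangalore blue leaf and to 411 in Dilkhush leaf. The Red globe leaf sum held 428 RPKM of GRIP28, which was above leaf in every peel, 162 of GST4 and 49.4 of CHIT3. The part of these leaf differences in the AP1 value was not tested.

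Likeness was measured as the root mean square difference of log2(RPKM + 1) over the 6 columns after each row was centred on its own mean, among 18365 other measured rows. The row most like AG was LOC100259977, at a distance of 0.21, with 16.6, 14.5 and 16.3 RPKM in Bangalore blue, Red globe and Dilkhush peel and 1.07, 1.77 and 0.24 RPKM in leaf. The nearest rows with a gene symbol were METK4, an S-adenosylmethionine synthetase, at 0.47, the hexose transporter HT6 at 0.50 and the actin depolymerizing factor ADF at 0.52. Among peels the hexose transporter was highest in Dilkhush, at 364 RPKM, beside 145 for Bangalore blue and 143 for Red globe. It was picked by likeness over these same columns, so having its highest peel value in Dilkhush, as AG did, is no separate observation. The row most like AP1 was LOC100259872, at a distance of 0.071, with 6.43 RPKM in Red globe leaf and at most 0.30 RPKM in every other column. TFL1A was the nearest row with a symbol, at 0.37, followed by PEL at 0.53 and CBL05, a calcineurin B-like calcium sensor, at 0.53. Many unnamed rows came closer, as METK4 ranked 50 in likeness to AG and TFL1A ranked 62 in likeness to AP1.

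Genes next to AG and AP1 in the RefSeq assembly GCF_030704535.1, which is not known to be the build of the files, had varied levels of their own. Of the 3 protein-coding genes on each side of AG, 5 had a row. The adjacent LOC100256688 was 38.6, 26.0 and 23.3 RPKM in Bangalore blue, Red globe and Dilkhush peel and 23.2, 27.3 and 20.5 RPKM in leaf, and the adjacent gene on the other side, LOC100249706, was at most 0.27 RPKM in any column. Next to AP1, LOC100232936 was 10.2, 6.14 and 8.29 RPKM in peel, against 0.033, 0.59 and 0.53 RPKM in leaf, opposite to AP1. The adjacent gene on the other side, LOC100855079, was at most 0.26 RPKM in any column and was listed at 0 in Red globe leaf. The next gene beyond it, LOC100254361, was listed at 0 in all peel columns, like AP1, and was 8.08, 16.0 and 7.63 RPKM in Bangalore blue, Red globe and Dilkhush leaf, again highest in Red globe. The adjacent genes were chosen by position, and LOC100254361 was singled out after its values were seen.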

How the data were processed

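RNA of young leaves and fruit peels was extracted with a plant RNA kit and made into strand-keeping mRNA libraries, per the labels' protocols. Per the submitters' processing notes, the tools were TopHat2 (2.1.1) with Cufflinks (2.2.1), whose roles are not stated. The authors deposited RPKM in 2 tables of 3 columns each, per the file headers; the build, the annotation and the way libraries were merged are not stated in what was used here. Column names were tied to groups by the initials in the sample titles. Low values showed no steps of whole reads: in the 6 pairs of columns of 1 table, at most 0.92% of low rows shared 1 ratio. Differences were computed with a pseudocount of 1 in Python 3.11.15, numpy 2.4.6 and pandas 2.3.3. Names carried by several rows were left out, and the remaining 23590 rows were matched by their full name, as the tables hold no other identifier. The calling rule was tested on simulated data, with an assumed level of noise. That simulation held no difference of scale between the tables, so it gives no error rate for the calls made here.

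Members, lists and the calling rule were chosen with earlier results of these data known. Lists were matched by symbol or by synonyms in the RefSeq gene table. All of AG, AP1 and the rows of the MADS-box and regulator lists were named if they reached 1 RPKM, together with the 3 nearest rows with a symbol and the nearest unnamed row for each member. A planned family list from protein sequences was not run, since no protein sequences were used here. A model over single libraries, planned for limma, could not be fitted on 1 column per group. Alternatives were a pseudocount of 0.1, equal medians, quantile normalization, an equal total without transfer RNA, no floor and an RPKM of 5 in both columns.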

Additional observations from a re-analysis of the deposited data

Results flagged for a closer look

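Results are given here where the same contrast of cultivars went opposite ways in peel and in leaf, by at least 0.5 on the log2(RPKM + 1) scale in each tissue. With 1 value per group the differences between tissues were not tested. AG in Bangalore blue minus Dilkhush was -0.61 in peel and 0.92 in leaf. Its peel value was under 0.5 in size with equal medians (-0.43) and quantile normalization (-0.49). VFUL-L in Red globe minus Dilkhush was -0.92 in peel and 1.36 in leaf. TFL1C in Bangalore blue minus Red globe was 0.58 in peel and -0.59 in leaf. For TFL1C 1 tissue was under 0.5 in each of the 3 other scalings, at -0.46 in leaf with equal medians, -0.43 in leaf with quantile normalization and 0.46 in peel with an equal total without transfer RNA. All signs stayed the same.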

How the results depend on the processing

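AG kept its direction and the 4-fold size in all 3 cultivars under each pseudocount and scaling. Equal medians moved the median difference of all matched rows by 0.89 for Bangalore blue, 0.79 for Red globe and 0.78 for Dilkhush, and put AG at 3.62, 3.61 and 4.95. With an RPKM of 5 asked of both columns, AG in Dilkhush, at 4.04, was not called, since its leaf value is below 5. AP1 was called in 0 cultivars between peel and leaf, or in 1 (Red globe, at -2.91) without a floor. In leaf, AP1 at 2.42 for Red globe minus Dilkhush and -2.57 for Bangalore blue minus Red globe passed without a floor, and became 3.71 and -4.17 with a pseudocount of 0.1. Of the flowering rows, AP3 in Dilkhush, under 1 RPKM throughout, changed sign under equal medians and quantile normalization. Calls of FLC, AP2, LOC100232937 and VFUL-L changed with the scaling, as given beside them.

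Counts of called rows depended on scaling and floor. For Bangalore blue, 619 rows were higher and 1670 lower in peel; equal medians gave 1828 and 907, and an RPKM of 5 in both columns gave 303 and 395. For Red globe, 681 and 1782 became 1653 and 941, or 299 and 457. For Dilkhush, 743 and 1438 became 1842 and 774, or 349 and 360. In all 3 cultivars, 253 were higher and 817 lower; equal medians gave 746 and 446, an RPKM of 5 in both columns gave 89 and 122, and no floor gave 1277 lower. The share of calls that were higher in peel was 27.0%, 27.6% and 34.1% in Bangalore blue, Red globe and Dilkhush, 66.8%, 63.7% and 70.4% with equal medians, and 40.8%, 44.7% and 46.8% after quantile normalization. Between cultivars, an RPKM of 5 in both columns gave 178, 172 and 162 calls in peel and 103, 171 and 196 in leaf, for Bangalore blue against Dilkhush, Red globe against Dilkhush and Bangalore blue against Red globe. The counts in the same order were 526, 495 and 433 in peel and 399, 535 and 547 in leaf. No floor gave 794 and 710 for the first and last peel comparisons and 625 for the first leaf comparison.

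No paired analysis was possible because each cultivar and tissue has 1 column with no library number. Differences between peel and leaf within a cultivar are given without a test over cultivars, since the 2 tables were normalized separately. Depth is unknown, so no limit can be set on the AP1 values listed at 0.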

Other observations

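Some MADS-box genes that adjoin each other in the RefSeq assembly GCF_030704535.1 had opposite tissue patterns. FLC and MADS4 are adjacent protein-coding genes. The MADS4 to FLC ratio was 15.8, 18.7 and 12.1 in Bangalore blue, Red globe and Dilkhush peel, while the FLC to MADS4 ratio was 414, 87.4 and 621 in leaf. MADS8 and MADS3 are separated by 1 other protein-coding gene. MADS3 was above MADS8 in every peel column, by 5.32, 18.7 and 9.89 times in Bangalore blue, Red globe and Dilkhush, although no peel value of either gene passed 2.71 RPKM. In leaf MADS3 was listed at 0 in Bangalore blue and Dilkhush and was 0.72 RPKM in Red globe, while MADS8 was at least 135 RPKM. VFUL-L and MADS2, also adjacent, were both higher in peel in each cultivar. These pairs were picked after the levels were seen, and no share over all adjacent pairs was computed.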
